A study of Mus musculus with 13 samples.

Results

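Adult mouse islets and mouse embryonic stem cells stand at the ends of this series of single-colour Illumina bead arrays, and every gene on the arrays was compared between them. The members were chosen by sample title: the 2 arrays titled as adult islets, which the labels call a positive control, and the 2 arrays of embryonic stem cells, called a negative control, make 4 of the 13 arrays. The remaining 9 arrays hold islet progenitors that were purified from pancreas, with 4 arrays of day 0, 3 of day 1 and 2 of day 4 of their differentiation, and served here to show which of the differences between the ends were already present, absent or opposite in progenitors. The series was made to study the molecular mechanisms by which islet progenitors differentiate.

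All 5 groups carry the strain label C57BL/6, and the stem cells are of the line W9.5. That line is commonly described as derived from another strain than its label gives, so strain and cell type cannot be told apart between the ends. No genotype, added agent or age was given beyond the day of differentiation, and the islets were labelled only as adult and of the pancreas. Replicates are numbered in the labels with no word on whether cultures or animals were separate, so a p-value here measures the spread between these arrays, which may be technical. Whole islets hold several endocrine cell types and other cells of the organ, and in such bulk samples fewer cells of a type and less RNA per cell cannot be told apart.

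Embryonic stem cells are held in a pluripotent state by a small circuit of transcription factors, divide fast and rely on glycolysis. Pancreatic islets are clusters of hormone cells: beta cells make insulin, alpha cells glucagon, delta cells somatostatin and PP cells pancreatic polypeptide. These cells store their hormones in dense core granules, divide rarely once mature, and keep silent a few metabolic genes, among them lactate dehydrogenase A and some hexokinases, that would uncouple insulin release from glucose. Islet progenitors arise in the fetal pancreas from cells that switch on Neurog3 for a short time, and acinar cells, which make digestive enzymes, surround the islets in the organ.

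Values are log2 intensities as deposited, and a gene is represented by its probe with the highest mean. A probe counted as above background where its value exceeded 7.24, which lies 5 SD above the mode of all values. By that measure 44.1% to 46.4% of the 25697 probes were above background on each array, and 10382 genes were above it on at least 2 arrays and were tested. Differences are log2 differences between group means with the SE of a limma fit of the 5 groups over all 13 arrays, and a gene is said to be called where its p-value, adjusted by Benjamini-Hochberg over all tested genes, was under 0.05. For each called gene a progenitor day is said to show the difference as present where it was called against stem cells in the direction of islets. A present difference is in part where islets were also called further along that direction, and beyond islets where the day was called past them. The difference is absent where the day was not called against stem cells while islets were called against the day in their direction, opposite where the day was called against stem cells the other way, and otherwise undecided. The 2 islet arrays were close to each other, with 50 tested genes (0.482%) differing by more than 1, whereas the 2 stem cell arrays differed by more than 1 at 487 genes (4.69%). The 2 day 4 arrays were closest, with 10 such genes (0.0963%), and day 1 replicates 1 and 2 furthest apart, with 560 (5.39%). The fit gives all groups the same variance for a gene.

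The stem cell arrays stood apart from each other in a set of genes that were chosen after their values were seen. Replicate 1 was higher by more than 1 at 322 genes. These were led by Ifi27, an interferon-induced gene, at 12.47 and 7.4 on replicates 1 and 2. Next came Mmp3, a matrix metalloproteinase, at 11.85 and 7.32, and Lyz1, a lysozyme gene, at 11.53 and 7.035. Dcn, a matrix proteoglycan of fibroblasts, followed at 12.09 and 7.82. Replicate 2 was higher by more than 1 at 165 genes, led by Gbx2, a homeobox factor of naive stem cells, at 8.87 and 12.48. Over the 6 tested of 7 markers of fibroblasts, the feeder cells a stem cell culture could hold, the mean level was 9.20 on replicate 1 and 7.42 on replicate 2. The other groups spanned 7.22 to 9.43 for the same markers. Whether feeder cells account for the difference between the 2 stem cell arrays was not tested. The 33 tested genes of antigen presentation and interferon response had a mean level of 8.98 on replicate 1 and 7.89 on replicate 2, and the part of these differences in the results below was not tested beyond leaving each array out in turn.

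The labels matched most of the defining genes of both ends, with Dppa5a, Pax6 and Pcsk1 as exceptions in islets. All 7 stem cell markers were above background on both stem cell arrays, where their mean level was 11.8 to 12.0, and 6 of the 7 were at background on both islet arrays, the exception being Dppa5a. Of the 12 islet endocrine markers 11 were tested, and 9 were above background on both islet arrays. The probes for Pax6, an islet transcription factor, and Pcsk1, a prohormone convertase, were not well above background there, at 7.0 and 7.09 and at 7.01 and 7.09, and Mafa, a factor of mature beta cells, reached it on 1 of 2 islet arrays at 7.41 and 7.23. For these probes no level of the gene in islets can be given, and Pcsk2 was not analysed here.

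Of the 10382 genes tested, 4884 (47.0%) were called between adult islets and stem cells. Islets were higher at 2412 genes (23.2%) and lower at 2472 (23.8%), and at 2752 of the called genes the difference was 2-fold or more, 1393 higher and 1359 lower. The largest differences were not evenly split: 92 genes were at least 16-fold higher in islets and 34 at least 16-fold lower, from a log2 difference of 7.83 for the amylase gene Amy2a5 down to -6.83 for the stem cell gene Dppa5a. No stem cell array was above background at 629 of the higher genes and no islet array at 523 of the lower genes, so that for these the fold is given as a bound against background, as "at least". The median log2 difference over all genes tested was 0.0049. Among the 5498 genes that were not called, 4480 had a 95% interval within 2-fold in either direction. The genes nearest to the threshold were Sap30l and Uchl1 on the inside, at log2 differences of -0.47 and -0.51, and Nek5 and Ppil2 on the outside, at 0.45 and -0.46.

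**Figure D1:**
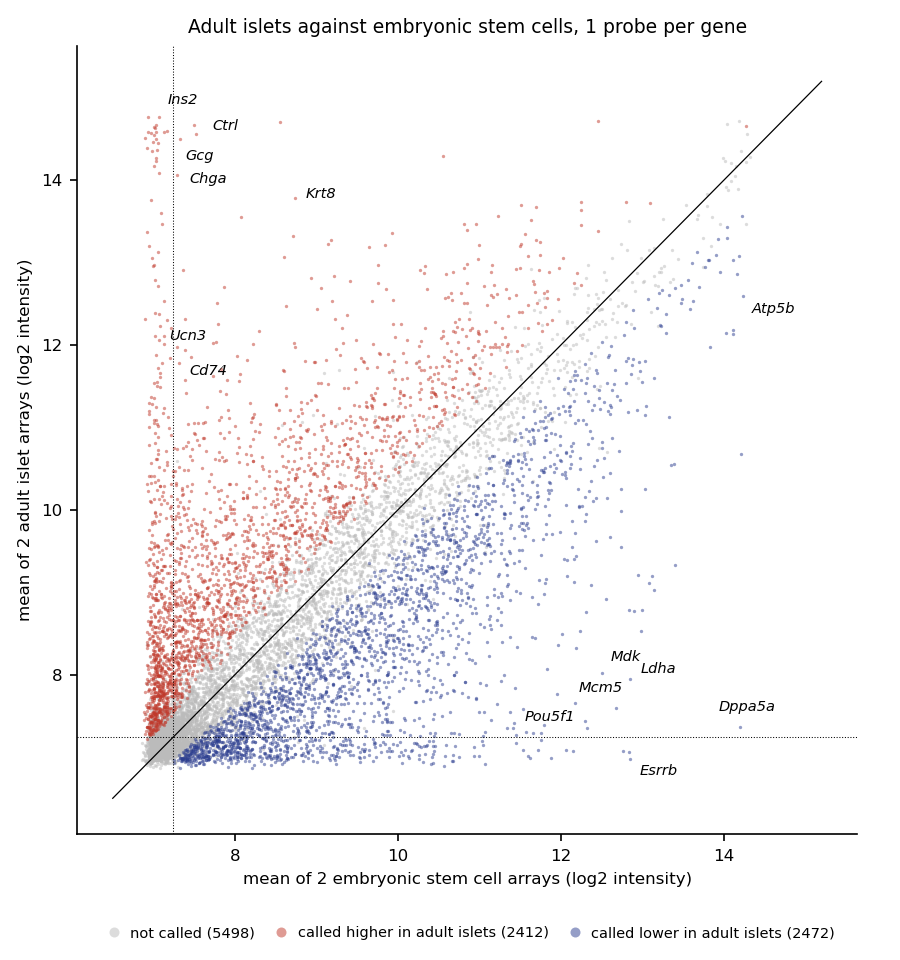
Mean log2 intensity of each of the 10382 tested genes on the 2 adult islet arrays (vertical axis) against the 2 embryonic stem cell arrays (horizontal axis), with the line of equality, and with dotted lines at the background level of 7.24. The columns of points along the dotted lines are genes at background at one end, 629 called higher and 523 called lower in islets.

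Pluripotency genes made up the clearest block of losses. Of 32 tested genes of the pluripotency list, 31 were called lower in islets and none higher, with a median log2 difference of -3.20, and Klf4, a reprogramming factor shared with other epithelia, was among them with -2.01 ± 0.26 (SE). Pou5f1, the Oct4 factor at the centre of the circuit, read 11.38 and 12.14 on the stem cell arrays and 7.20 and 7.22 on the islet arrays. The 9 progenitor arrays read 7.11 to 7.31. Only the stem cell arrays were clearly above background for this gene, and it was at least 23-fold lower in islets (limma, adjusted p = 2.3e-08). Nanog, its partner factor, was at least 20.5-fold lower in islets and read 11.95 and 11.25 in stem cells. Esrrb, an orphan nuclear receptor of naive cells, was at least 48.7-fold lower (adjusted p = 2.9e-10), and Zfp42, the Rex1 zinc finger gene, at least 28.3-fold lower. Sox2 had a smaller bound of at least 2.36-fold, since its probe read only 8.51 and 8.45 in stem cells. Dnmt3l, the cofactor of the de novo DNA methyltransferases, was at least 46-fold lower in islets, and Tdgf1, a Nodal co-receptor, at least 9.12-fold lower.

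All 31 of these pluripotency genes were also lower than stem cells at day 0, and all 31 at day 4, where 49.3% and 41.3% of all genes were called against stem cells in either direction. Islets were called against day 0 for 5 of the 31 and against day 4 for 2, beside 34.1% and 14.5% of all genes. Dppa5a, a small RNA-binding protein of stem cells, was 1 of 4 that day 0 showed only in part. It read 14.23 and 14.16 in stem cells, 8.25, 8.49, 8.86 and 8.65 at day 0, 8.20 and 8.20 at day 4 and 7.45 and 7.27 in islets. Every progenitor array lay above both islet arrays, and islets and day 0 differed by -1.20 (adjusted p = 0.00038).
The germline list behaved alike, with 13 of 15 tested members lower in islets, a median of -1.37, all 13 below stem cells at day 0 and none of them called between islets and day 0. Rhox5, an X-linked homeobox gene, was at least 24.9-fold lower in islets, and Stag3, a cohesin subunit of meiosis, at least 7.4-fold lower. Trh, which encodes the thyrotropin-releasing hormone precursor, is a peptide hormone gene that was at least 30.1-fold lower in islets. It read 12.36 and 11.94 in stem cells, 6.99 and 7.15 in islets and 7.13 to 8.0 on the progenitor arrays.

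The octamer ATGCAAAT, the sequence that Oct4 and other POU factors bind, was searched on both strands of the RefSeq promoters (GRCm38.p6, 250 bases before to 50 after a start). It was present in 1.97% of 27025 genes with a promoter entry, in 1.79% of the 8417 of them that were tested and in 1.6% of the 1126 that were at least 2-fold lower in islets. Only exact matches were counted, so a promoter without one may still hold a variant of the octamer. Zfp42 is shown as the only 1 of the 21 tested pluripotency genes with an entry that holds the exact octamer. The stretch below runs from 200 bases before to 20 after the start, on the minus strand of chr8:43306990-43307209, and the capitals mark the octamer in its reverse orientation, 186 bases before the start.
Zfp42: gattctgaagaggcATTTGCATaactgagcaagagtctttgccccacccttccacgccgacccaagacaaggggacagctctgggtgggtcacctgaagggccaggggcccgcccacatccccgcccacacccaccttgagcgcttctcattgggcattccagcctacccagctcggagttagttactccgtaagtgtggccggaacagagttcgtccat

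Islet hormones were high in islets, and 8 of the 9 called were already above stem cells at day 0. Of 14 tested hormone genes, 9 were called higher in islets than in stem cells and none lower, with a median of 4.33. Ins2, the insulin gene tested here, read 7.16 and 6.98 on the stem cell arrays and 14.80 and 14.74 on the islet arrays. On progenitor arrays it read 14.06, 14.09, 14.55 and 14.77 at day 0, 14.29, 14.76 and 14.91 at day 1 and 14.69 and 14.68 at day 4. Progenitor and islet arrays overlapped while both stem cell arrays were at background, and Ins2 was at least 185-fold higher in islets than in stem cells (limma, adjusted p = 3.9e-09). Gcg, the glucagon gene, was at least 162-fold higher, with 14.57 and 14.59 in islets and 14.09 to 14.94 in progenitors. Pyy, the peptide YY gene, was at least 149-fold higher and was likewise not called between islets and any day.

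The brightest hormone probes lay close to the brightest probe of the islet arrays, which read 14.84 and 14.81, so a difference from islets may be understated for them. Ins2 lay 0.0357 to 0.0699 below it, Ppy 0.14 to 0.161, Gcg 0.221 to 0.264 and Sst 0.268 to 0.27, whereas Iapp lay 2.68 to 2.74 below it. With that limit, Sst at day 0 and Ppy on all 3 days were called below islets. Sst, the somatostatin gene, read 13.72, 13.93, 13.49 and 13.81 at day 0 and 14.57 and 14.54 in islets, a difference of 0.82 ± 0.13 (SE, adjusted p = 0.00075), and reached 14.58 and 14.58 by day 4. Ppy, the pancreatic polypeptide gene, read 10.94, 12.07, 11.21 and 10.87 at day 0, 10.42, 11.01 and 10.57 at day 1, 13.53 and 13.09 at day 4 and 14.67 and 14.67 in islets. Its islet arrays lay above every progenitor array, and islets were higher than day 4 by 1.36 ± 0.34 (adjusted p = 0.022). Iapp, the amylin gene of beta cells, was at least 29.3-fold higher in islets than in stem cells.

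Ghrl, the ghrelin gene of fetal epsilon cells, went well past the adult level. It read 7.08 and 7.0 in stem cells, 14.23, 14.17, 14.37 and 13.74 at day 0, 12.73 and 12.14 at day 4 and 8.07 and 8.06 in islets. Islets were at least 1.77-fold above stem cells (adjusted p = 0.0035) and differed by -6.06 ± 0.20 from day 0 (adjusted p = 8.5e-09), so its level in islets lay between stem cells and every progenitor array.

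**Figure D2:**
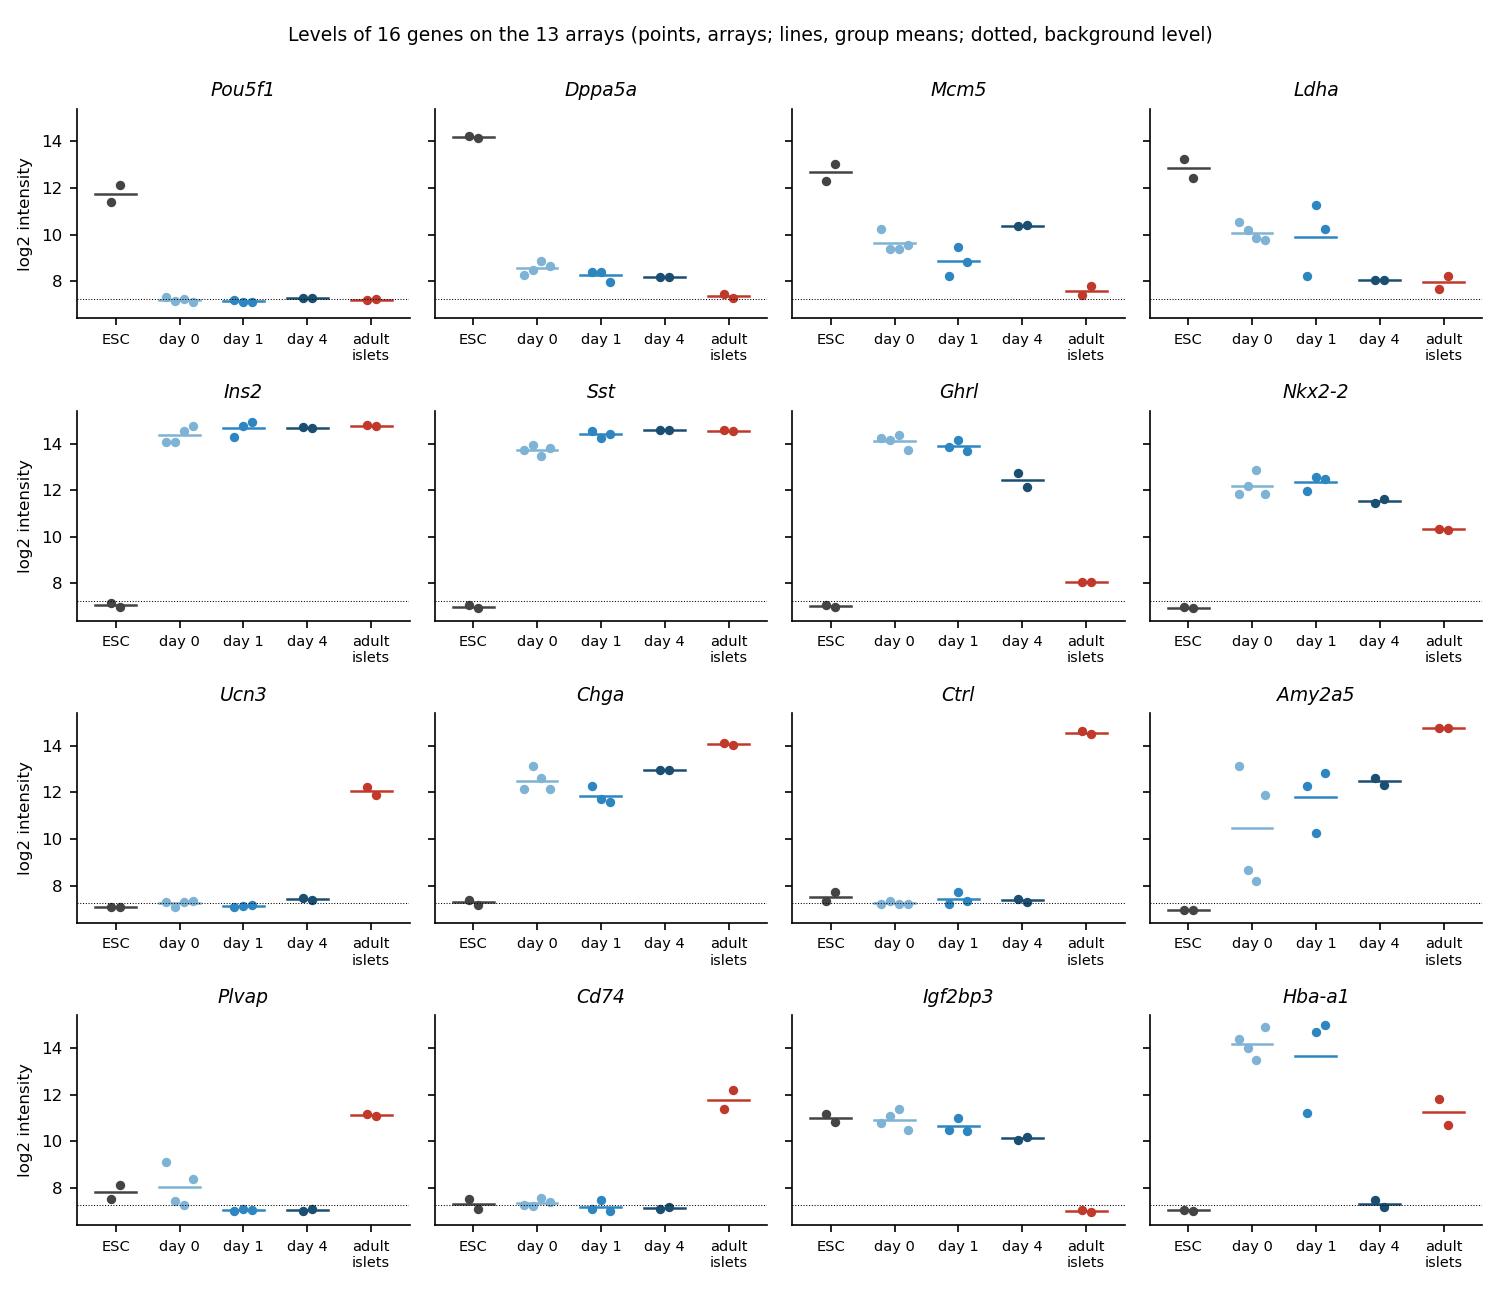
Log2 intensity of 16 genes on the 13 arrays in 5 groups: each point is an array, each line a group mean, and the dotted line is the background level of 7.24. Pou5f1 is at background outside stem cells, Ins2 is high in progenitors and islets alike, Ghrl and Nkx2-2 are highest in progenitors, Ctrl and Ucn3 are high only in islets, and Igf2bp3 is low only in islets.

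Islet transcription factors separated the adult end from day 0 more than from day 4. Of 33 tested factors, 13 were called higher in islets than in stem cells and none lower, with a median of 0.50, while day 0 was above stem cells at 25 of the 33, with a median of 1.67. All 13 were already higher than stem cells at day 0 and at day 4. Day 0 was called above islets at 8 of the 13 and day 4 at 5. Of all 33, islets were called below day 0 at 19 and below day 4 at 6. Beside these, 34.1% and 14.5% of all genes were called either way. Insm1, a zinc finger factor of endocrine cells, overlapped between progenitors and islets: it read 7.13 and 7.12 in stem cells, 11.67 to 12.50 in progenitors and 12.21 and 11.81 in islets, at least 27.3-fold higher than stem cells. Isl1, a LIM homeobox factor of endocrine cells, was 24.9-fold higher in islets than in stem cells, with 1 of 2 stem cell arrays above background, and yet islets were below day 0, with a difference of -1.65 (adjusted p = 0.00014). Nkx2-2, a homeobox factor needed for beta cells, read 11.82, 12.19, 12.85 and 11.84 at day 0, 11.45 and 11.64 at day 4 and 10.34 and 10.31 in islets. All 9 progenitor arrays lay above both islet arrays, and islets were at least 8.49-fold above stem cells. Nkx6-1 and Pdx1, factors of beta cell identity, had the same order at day 0, with islets differing from day 0 by -1.15 ± 0.27 and by -1.10 ± 0.22, and neither was called between islets and day 4.

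Neurog3, the factor that starts the endocrine programme, was not called between the ends. It read 7.21 and 7.08 in stem cells and 8.27 and 7.64 in islets, with an adjusted p of 0.31 in limma, against 13.56, 13.44, 13.79 and 12.98 at day 0. Without day 1 replicate 1 the difference of 0.81 passed the threshold (adjusted p = 0.032). The 3 day 1 arrays read 11.60, 9.48 and 9.34, with replicate 1 the highest. Neurod1, a target of Neurog3, lay just outside the threshold with a difference of 1.26 ± 0.49 (adjusted p = 0.053). Neurod1 gained a call under 7 of 25 alternatives, among them a fit of the 4 arrays of the ends alone, background subtraction and a replicate block. Others were leaving out day 0 replicate 2 (adjusted p = 0.036) or day 0 replicate 4 (adjusted p = 0.00019). Replicate 4 read the highest of 9.21, 8.89, 9.44 and 10.93 at day 0.

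Of 43 tested genes of granule cargo and prohormone processing, 32 were higher in islets, none lower and 11 not called, with a median of 2.06, and all 32 were above stem cells at day 0 and at day 4. Islets were still called higher than day 0 at 16 of them and higher than day 4 at 5. Chga, the chromogranin A of the granule core, read 7.39 and 7.19 in stem cells, 12.15, 13.13, 12.61 and 12.13 at day 0, 12.95 and 12.96 at day 4 and 14.11 and 14.02 in islets. Both islet arrays lay above every other array, day 4 lay within the range of day 0, and islets stood 1.11 ± 0.31 above day 4 (adjusted p = 0.034). Scg2, secretogranin 2, went from 10.88, 11.31, 10.52 and 11.37 at day 0 to 14.01 and 14.19 at day 4, with 14.06 and 14.13 in islets, so that day 4 and islet arrays overlapped. Resp18, a granule protein of neuroendocrine cells, was at least 127-fold higher in islets than in stem cells, and Chgb, chromogranin B, at least 52.8-fold.

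The cAMP response element TGACGTCA, a palindrome to which CREB family factors bind, was searched as an exact match in the same RefSeq promoters. It was found in 2.03% of 27025 genes, in 3.47% of the 8417 that were tested, in 4.18% of 1124 genes at least 2-fold higher in islets and in 3.20% of 1126 at least 2-fold lower. In the granule list it was found in 5 of 35 genes with an entry, which were Chgb, Scg2, Pcsk1, Slc18a2 and Syn1, and in the hormone list in Sst, 1 of 13. The promoters of 3 genes that were at background in stem cells and bright in islets, Sst, Scg2 and Chgb, are printed below. They run from 200 bases before to 20 after the start, with the element in capitals. The same 8 letters are marked in the promoter of Pcsk1, whose probe stayed at background at both ends. No level of Pcsk1 in islets can be given from that probe, so its promoter is not shown as that of a silent gene. Sst lies on the minus strand of chr16:23890825-23891044 with the element 48 bases before the start, and Scg2 on the minus strand of chr1:79440007-79440226 with it 68 bases before. Chgb lies on the plus strand of chr2:132781442-132781661 with the element 72 bases before the start, and Pcsk1 on the plus strand of chr13:75089657-75089876 with it 78 bases before. A match of letters is a description and does not show that a factor binds.
Sst: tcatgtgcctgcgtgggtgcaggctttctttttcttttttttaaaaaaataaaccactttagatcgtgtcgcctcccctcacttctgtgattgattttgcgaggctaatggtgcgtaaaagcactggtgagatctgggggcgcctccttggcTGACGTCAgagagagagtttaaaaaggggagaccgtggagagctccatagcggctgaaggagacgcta
Scg2: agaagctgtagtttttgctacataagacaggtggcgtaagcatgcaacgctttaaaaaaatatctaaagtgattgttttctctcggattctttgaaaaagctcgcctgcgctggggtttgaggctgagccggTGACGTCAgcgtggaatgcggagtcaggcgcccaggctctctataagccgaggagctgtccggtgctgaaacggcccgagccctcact
Chgb: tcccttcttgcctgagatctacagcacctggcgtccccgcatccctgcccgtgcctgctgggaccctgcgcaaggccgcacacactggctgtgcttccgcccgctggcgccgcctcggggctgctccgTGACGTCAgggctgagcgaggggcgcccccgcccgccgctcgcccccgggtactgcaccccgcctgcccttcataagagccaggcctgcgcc
Pcsk1: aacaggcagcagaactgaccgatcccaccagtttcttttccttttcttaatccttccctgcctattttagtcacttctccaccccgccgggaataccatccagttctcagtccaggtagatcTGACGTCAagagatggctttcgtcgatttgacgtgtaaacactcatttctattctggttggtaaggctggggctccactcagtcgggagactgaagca

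Of 36 tested genes of beta cell maturity and glucose sensing, 24 were higher in islets, none lower and 12 not called, with a median of 1.51. Progenitors held 20 of the 24 at day 0, 13 of them only in part, and 19 at day 4, 3 of them in part. G6pc2, the islet glucose-6-phosphatase, read 9.98, 10.96, 9.77 and 10.81 at day 0, 12.66 and 12.77 at day 4 and 13.31 and 13.64 in islets, against 7.15 and 7.06 in stem cells. Slc2a2, the glucose transporter GLUT2, was at least 17.4-fold higher in islets than in stem cells, and Slc30a8, the zinc transporter of insulin granules, at least 33.9-fold. Ero1b, an oxidase that aids proinsulin folding, was 46.7-fold higher, with 1 of 2 stem cell arrays above background. Ucn3, urocortin 3, a peptide that marks mature beta cells in mice, was the member absent throughout progenitors. It read 7.06 and 7.08 in stem cells, 7.30, 7.08, 7.28 and 7.35 at day 0, 7.07, 7.11 and 7.19 at day 1, 7.46 and 7.38 at day 4 and 12.24 and 11.87 in islets. The islet arrays stood alone, at least 28.2-fold above stem cells (adjusted p = 1.3e-09) and 4.64 ± 0.14 above day 4 (adjusted p = 1.2e-08).

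Ion channel genes gave 13 of 25 higher in islets and none lower, with a median of 0.52. Abcc8, the sulfonylurea receptor of the potassium channel of beta cells, was at least 14.5-fold higher in islets than in stem cells but below day 0, with a difference of -0.91 (adjusted p = 0.019). P2ry1, a purinergic receptor, read 11.24 to 11.41 at day 4 and 9.24 and 8.66 in islets. Trpm5, a cation channel that raises insulin release, was at least 7.45-fold higher in islets and was at 7.42 and 7.27 at day 4. Syt4, a synaptotagmin of mature beta cells, read 7.29, 7.64, 7.55 and 7.23 at day 0, 8.89 and 8.81 at day 4 and 11.85 and 11.72 in islets. It was absent at day 0 and present in part at day 4, where islets were still 2.93 ± 0.16 higher. Pdyn, the prodynorphin gene, was absent at day 0 at 7.25, 7.85, 7.82 and 7.43, and read 11.79 and 11.59 at day 4 and 11.87 and 11.29 in islets.

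Genes of the endoplasmic reticulum and secretory pathway were higher in islets at 33 of 47 tested and lower at 1, with a median of 1.29. Of the 33, 20 were above stem cells at day 0, 9 were absent and 2 opposite. At day 4 there were 20 present, 3 absent and 10 undecided. Over all genes higher in islets, 65.6% were present and 24.8% absent at day 0, and 66.1% and 17.5% at day 4. Ddit3, the CHOP factor of the stress response, read 8.41 and 7.26 in stem cells, 8.50 and 8.67 at day 4 and 11.84 and 11.57 in islets, 14.7-fold higher than in stem cells. Atf4, the factor upstream of it, was 14.8-fold higher in islets and varied among the 3 day 1 arrays, at 10.78, 7.87 and 10.23. Aldh1l2, the mitochondrial folate enzyme, was the only 1 of 18 tested serine, glycine and folate genes called higher in islets, and it was at 7.28, 7.32, 7.31 and 7.23 at day 0, 9.68, 9.98 and 9.74 at day 1 and 9.58 and 9.75 in islets. The other 12 calls of that list were lower in islets, among them Gldc, the glycine decarboxylase, with a difference of -3.63 ± 0.26.

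**Figure D3:**
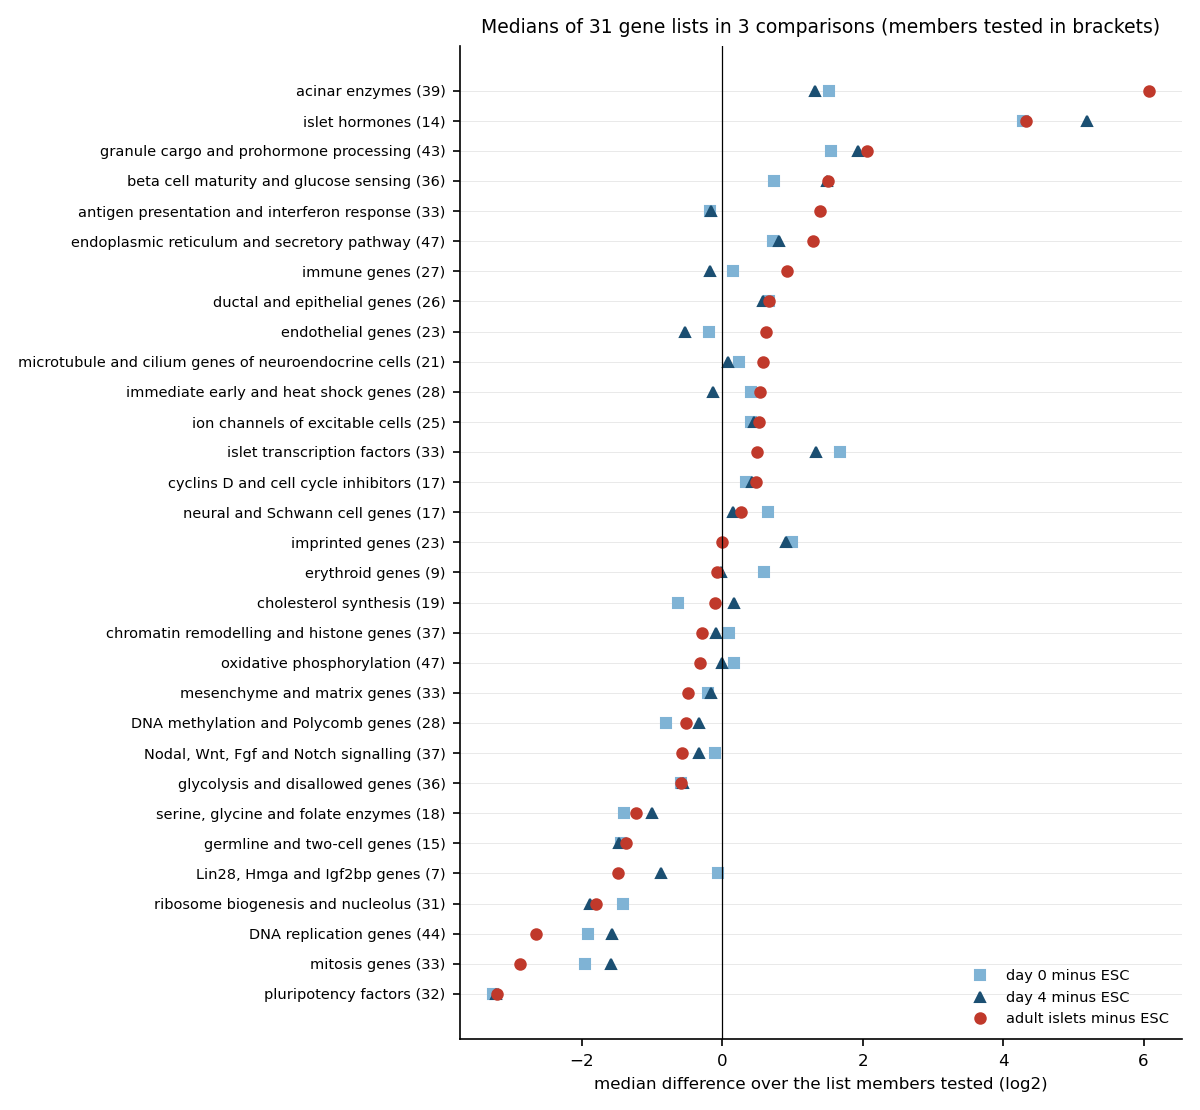
Median log2 difference over the tested members of 31 gene lists (horizontal axis) for adult islets minus embryonic stem cells (circles), day 0 minus stem cells (squares) and day 4 minus stem cells (triangles), which share the stem cell arrays. Pluripotency factors have nearly the same median in all 3 comparisons, acinar enzymes 6.08 in islets against 1.52 and 1.33 at days 0 and 4, and islet transcription factors a lower median in islets than in progenitors.

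Acinar enzyme genes were the list with the largest median. Of 39 tested, 36 were higher in islets and 1 lower, with a median of 6.08, and their mean level was 12.22 to 12.61 on the islet arrays against 7.29 to 7.36 in stem cells. The mean level was 8.55 to 9.49 at day 0, 8.83 to 10.16 at day 1 and 9.19 to 9.43 at day 4. The digestive enzymes among them are products of exocrine cells, not of hormone cells, but the list also holds Reg genes and the factor Nr5a2. The part of the listed genes in the other differences of islets was not tested. Several of them belong to families of near-identical copies, such as the trypsins, elastases and amylases, between which a probe may not distinguish.

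At day 0 21 of the 36 were above stem cells, 17 of them in part, 13 were absent and 2 opposite, and at day 4 20 were present and 16 absent. Pnliprp1, a pancreatic lipase-related protein, read 14.13, 13.88, 13.19 and 13.99 at day 0 and 14.47 and 14.23 in islets and was not called between them. Amy2a5, a pancreatic amylase and the largest measured rise of all, read 6.94 and 6.93 in stem cells and 14.77 and 14.75 in islets. These are at least 184-fold apart (limma, adjusted p = 0.00076). Its islet values lay 0.0542 to 0.0656 below the brightest probe of their arrays, so the difference may be understated. The progenitor arrays differed widely for Amy2a5, with 13.12, 8.66, 8.18 and 11.90 at day 0 and 12.29, 10.28 and 12.81 at day 1. Ctrl, a chymotrypsin-like protease, was high only in islets, at 14.63 and 14.49 against 7.32 and 7.73 in stem cells and 7.19 to 7.71 on the 9 progenitor arrays, a 131-fold difference from stem cells (adjusted p = 7.8e-10) that may be understated, since both islet values are close to the brightest probe of their array. Zg16, a zymogen granule protein, read 7.12 to 10.46 in progenitors and 14.59 and 14.16 in islets, and Gp2, the main glycoprotein of the zymogen granule membrane, 7.03, 7.01, 7.04 and 6.99 at day 0 and 13.36 and 12.76 in islets. Reg2, a regenerating islet-derived gene, was at background on all stem cell and progenitor arrays and at least 24.9-fold higher in islets than in stem cells. Cel, a bile salt lipase, was present in part at day 0, at 10.99, 10.80, 9.68 and 9.46, and absent at day 4, at 8.67 and 8.42. The 1 lower member was Nr5a2, which is a factor of acinar cells and of stem cells, at 9.53 and 9.18 in stem cells and 7.13 and 7.16 in islets.

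Ductal and epithelial genes gave 12 higher and 2 lower of 26. Krt8, a simple epithelial keratin, was 32.9-fold higher in islets than in stem cells and read 11.56 to 13.38 in progenitors, while Krt7, a ductal keratin, was highest in progenitors at 10.76 to 12.10 against 10.76 and 10.73 in islets. The duct markers Krt19 and Sox9 read 7.48 and 7.27, and 7.10 and 7.22, on the islet arrays.

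Of 23 tested endothelial genes, 11 were higher in islets and none lower, and 12 were not called. Of the 11, 3 were present in part, 5 absent and 2 opposite at day 0, and 1 was present in part, 9 absent and 1 opposite at day 4. Their mean level was 8.92 to 8.99 on the islet arrays, 7.79 to 7.90 in stem cells, 7.37 to 8.06 at day 0 and 7.37 to 7.445 at day 4. Plvap, a protein of fenestrated capillaries, read 11.16 and 11.09 in islets against 7.54 and 8.12 in stem cells, 9.12, 7.45, 7.24 and 8.36 at day 0 and 7.02 and 7.09 at day 4. The islet arrays lay above all others, and the fold against stem cells was 9.81 (adjusted p = 0.00017). Emcn, endomucin, was at least 10.4-fold higher and Esm1, an endothelial proteoglycan, at least 21.4-fold. Whether a difference in the number of capillary cells accounts for these genes was not tested.

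Of 27 tested immune genes 15 were higher in islets, none lower and 12 not called. Of the 15, 7 were present and 7 absent at day 0, and 1 was present and 12 absent at day 4. The islet arrays were split for this list, with a mean level of 8.54 on replicate 1 and 9.27 on replicate 2. In stem cells it was 7.74 and 7.30. Cd74, the invariant chain of class II antigen presentation, read 7.52 and 7.10 in stem cells, 6.99 to 7.56 in progenitors and 11.38 and 12.19 in islets, a 22.2-fold difference from stem cells. H2-Ab1, a class II chain, rose with it by 3.62 ± 0.23. Over the 4 tested of 7 leukocyte markers the mean level was 7.61 to 8.21 in islets and 7.13 to 7.53 in stem cells. In islets Tyrobp read 7.46 and 7.92 and Cd3e 7.29 and 7.44. Lyz2 varied at both ends, with 8.84 and 6.98 in stem cells and 7.87 and 9.80 in islets, and was not called (limma, adjusted p = 0.30). Ptprc did not pass the filter, and Cd68 and Csf1r were not analysed here. Their part in the result was not tested. Of 33 tested genes of antigen presentation and interferon response, 25 were higher in islets and 2 lower. Of the 25, 1 was present and 23 absent at day 0, and 8 were present and 15 absent at day 4. Ifit3 read 9.13 and 7.17 in stem cells and 11.81 and 11.84 in islets, and Cxcl10, an interferon-induced chemokine, 7.42 and 6.90 and 10.26 and 10.90. Rsad2, viperin, was an exception with 8.44 to 10.29 in progenitors and 12.27 and 12.36 in islets. B2m, the light chain of class I molecules, rested on the stem cell pair: it read 12.28 and 9.41 there and 12.64 and 13.33 in islets (adjusted p = 0.033). Its difference of 2.14 was 0.71 without stem cell replicate 2 (adjusted p = 0.33), and the call was also lost without islet replicate 1 (adjusted p = 0.062) and without islet replicate 2 (adjusted p = 0.17). Conversely Ifi27, which was not called (adjusted p = 0.24), was 4.27 higher in islets without stem cell replicate 1 (adjusted p = 2.3e-05), and Usp18, which removes the interferon-induced protein ISG15, 4.17 higher (adjusted p = 6.6e-06, against 0.063 with it). Dcn was called without stem cell replicate 1 as well, at 2.88 (adjusted p = 0.037), and Mmp3 without stem cell replicate 2, at -4.50 (adjusted p = 1.0e-08).

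Mesenchyme and matrix genes gave 1 higher (3.03%) and 7 lower (21.2%) of 33 in islets, with a median of -0.49. Over all genes 23.2% were called higher and 23.8% lower. Their mean level was 9.25 on stem cell replicate 1 and 8.46 on replicate 2 against 8.26 to 8.29 in islets. Timp1, a metalloproteinase inhibitor, was lower in islets, with a difference of -2.21 ± 0.31. Of 9 tested erythroid genes, 1 was higher and 1 lower (11.1% each). Hba-a1, the alpha globin gene, read 7.05 and 7.0 in stem cells, 14.38, 13.99, 13.47 and 14.91 at day 0, 11.21, 14.69 and 15.002 at day 1, 7.45 and 7.17 at day 4 and 11.80 and 10.71 in islets. It was thus brightest on the day 0 arrays and on day 1 replicates 2 and 3, while day 1 replicate 1 lay between the islet arrays. Hba-a1 was at background on stem cell arrays, and at least 16.2-fold higher in islets than in stem cells. Neural and Schwann cell genes gave 6 higher (35.3%) and 3 lower (17.6%) of 17. Among them were Map2, a microtubule protein, which was 19.6-fold higher, and Mbp, whose locus also makes Golli transcripts outside myelin, which was 14-fold higher.

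**Figure D4:**
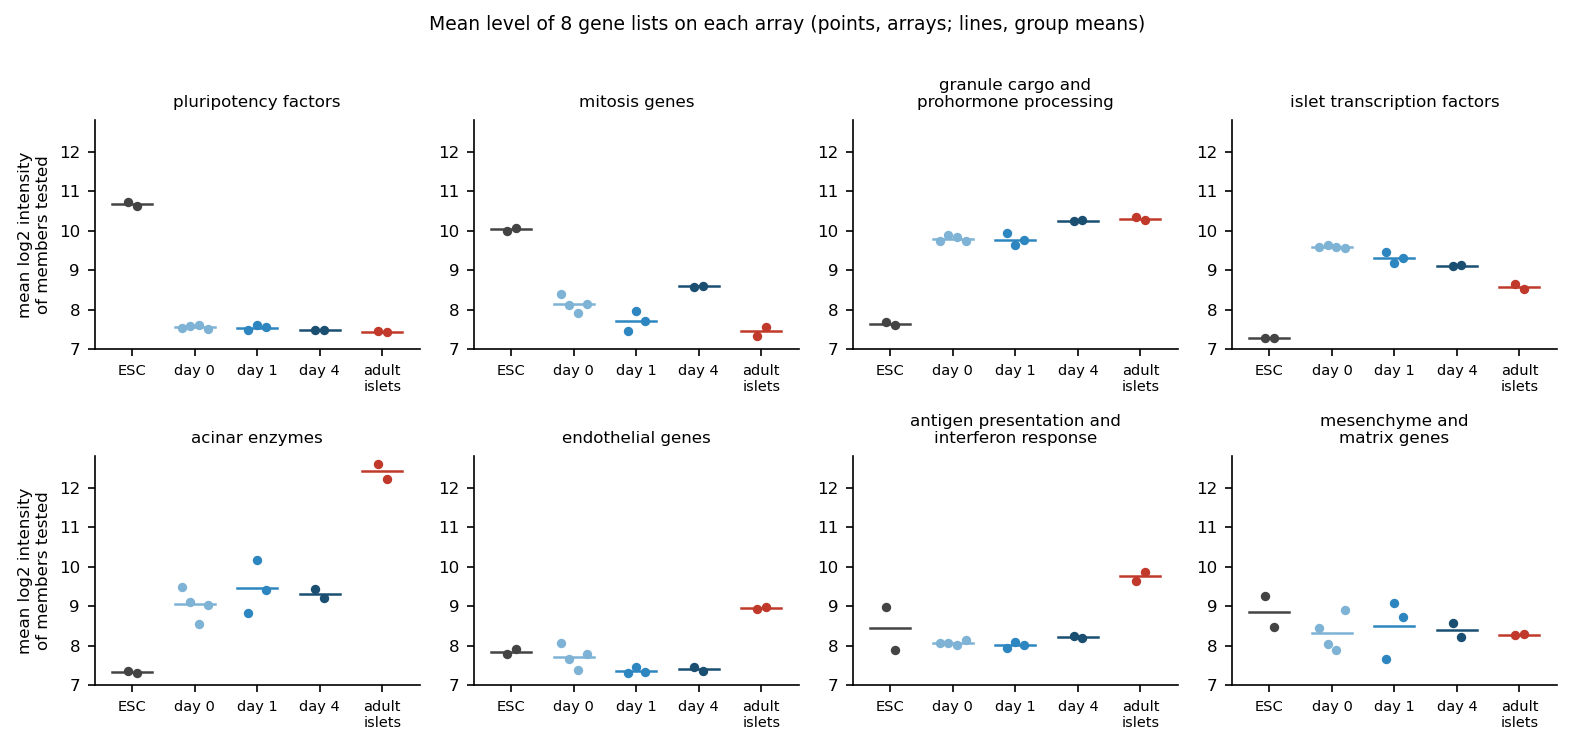
Mean log2 intensity of the tested members of 8 gene lists on each array (vertical axis) in the 5 groups: each point is an array and each line a group mean. The acinar, endothelial and antigen-presentation lists are highest on the 2 islet arrays, islet transcription factors on the day 0 arrays, and the stem cell arrays are split for the antigen-presentation list (8.98 and 7.89) and the mesenchyme list (9.25 and 8.46).

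Cell cycle genes were lower in islets almost throughout. Of 33 tested mitosis genes 31 were lower in islets and none higher, with a median of -2.88, and of 44 tested DNA replication genes 43 were lower and none higher, with a median of -2.65. At day 0 30 of the 31 mitosis genes were below stem cells, and at 19 of these islets were lower still. At day 1 30 were below stem cells and islets were lower still at 3, and at day 4 the counts were 29 and 21. The mean level of the mitosis list was 9.995 to 10.07 in stem cells, 7.90 to 8.39 at day 0, 7.46 to 7.97 at day 1, 8.57 to 8.61 at day 4 and 7.34 to 7.555 in islets. The day 4 arrays lay above all day 0 and day 1 arrays, and day 1 overlapped islets. Mcm5, a subunit of the replicative helicase, read 12.31 and 13.03 in stem cells, 8.24, 9.46 and 8.84 at day 1, 10.37 and 10.41 at day 4 and 7.41 and 7.78 in islets, a 33.9-fold fall between the ends (adjusted p = 1.6e-06). Cdc20, an activator of the anaphase-promoting complex, fell 31.1-fold, Birc5, survivin, 18.3-fold and Top2a, a topoisomerase of dividing cells, 13.8-fold. Uhrf1, which guides maintenance DNA methylation, fell 29-fold.

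A few cell cycle genes were not called between day 4 and stem cells. E2f1, a factor of S phase entry, read 9.68 and 9.95 in stem cells, 8.6, 8.58, 8.72 and 8.28 at day 0, 10.12 and 10.09 at day 4 and 8.24 and 8.32 in islets. Day 4 arrays were above both stem cell arrays while day 0 arrays were near islets, and islets differed from day 4 by -1.83 ± 0.19 (adjusted p = 0.00011). Pbk, a mitotic kinase, read 10.35 and 10.38 at day 4 and 7.45 and 8.54 in islets. Orc6, an origin recognition subunit, was absent on all 3 days, at 10.72 to 11.50 in progenitors against 11.30 and 11.85 in stem cells and 9.86 and 9.99 in islets. Among D cyclins and cell cycle inhibitors, 5 of 17 (29.4%) were higher and 2 (11.8%) lower, beside 23.2% and 23.8% of all genes. Ccnd2, the D cyclin of adult beta cells in mice, was 9.27-fold higher in islets. Cdkn1a, the p21 inhibitor, was not called (adjusted p = 0.068), but was 1.45 higher without stem cell replicate 1 (adjusted p = 0.0028) and called without day 0 replicate 4 (adjusted p = 0.049). Cdkn1c, the imprinted p57 inhibitor, was not called either (adjusted p = 0.15). It read 12.48, 11.52, 12.22 and 12.86 at day 0 against 9.65 and 9.20 in stem cells and 7.96 and 7.77 in islets. Cdkn1c was called without day 1 replicate 1 (adjusted p = 0.017), on the 4 arrays of the ends alone and with background subtracted.

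Of 28 tested genes of DNA methylation and Polycomb, 13 were lower in islets and 3 higher, and all 13 were below stem cells at day 0. Ezh2, the methyltransferase of Polycomb complex 2, had a difference of -2.29 ± 0.28 and Dnmt3b, a de novo DNA methyltransferase, one of -3.04 ± 0.24. Sirt1, a deacetylase, was lower, with a difference of -1.03 ± 0.27 (adjusted p = 0.0087), but not called without stem cell replicate 1 (-0.81, adjusted p = 0.069) or islet replicate 2 (-0.92, adjusted p = 0.061). Chromatin remodelling and histone genes were mixed, with 8 higher (21.6%) and 14 lower (37.8%) of 37 and a median of -0.28. Over all genes the shares were 23.2% and 23.8%. Ribosome biogenesis genes were lower at 28 of 31 and higher at none, with a median of -1.79, and 27 of the 28 were below stem cells at day 0. Mybbp1a, a nucleolar protein, fell 5.48-fold and Nhp2, a small nucleolar ribonucleoprotein subunit, 7.33-fold.

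Glycolysis genes, with those held silent in beta cells, gave 17 lower and 2 higher of 36. Ldha, lactate dehydrogenase A, read 13.25 and 12.44 in stem cells, 10.55, 10.18, 9.84 and 9.76 at day 0, 8.21, 11.27 and 10.25 at day 1, 8.06 and 8.04 at day 4 and 7.68 and 8.22 in islets. The day 0 arrays lay between the ends, day 4 overlapped islets, and islets were 29.8-fold below stem cells (adjusted p = 0.00020). Slc2a3, the glucose transporter GLUT3, read 13.32 and 12.36 in stem cells, 7.25 to 8.10 in progenitors and 8.77 and 8.80 in islets, so that progenitors lay below islets. Hk2, a hexokinase of growing cells, fell 13.1-fold. Eno2, the neuronal enolase, was higher in islets, at 11.10 and 11.22 against 8.84 and 7.64 in stem cells and 7.51 to 8.62 in progenitors.

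Most lower oxidative phosphorylation genes were not yet low at day 0. Of 47 tested, 3 (6.38%) were higher and 14 (29.8%) lower in islets than in stem cells, beside 23.2% and 23.8% of all genes. Of the 14, 9 were absent at day 0, beside 16.7% of all lower genes. At day 0 13 of the 47 were above stem cells and 5 below, beside 49.3% of all genes called either way. Atp5b, a catalytic subunit of ATP synthase, read 14.30 and 14.18 in stem cells, 13.71 to 14.45 in progenitors and 12.34 and 12.84 in islets. Both islet arrays lay below all others, with a difference of -1.65 ± 0.24 from stem cells (adjusted p = 0.00019). Cox6a2, a tissue-specific subunit of cytochrome c oxidase, went against the list, at 12.19 and 12.26 in islets against 7.12 and 7.05 in stem cells, at least 31.8-fold higher, and 7.89 and 8.08 at day 4.

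The Lin28, Hmga and Igf2bp list also holds Myc, Mycn, Mycl, Arid3b, Dis3l2 and Hif3a, so its counts are not of those families alone. Of its 7 tested genes, 5 were lower in islets and none higher. Of the 5, 3 were below stem cells at day 0, 1 was absent and 1 opposite, and 4 were below stem cells at day 4. Igf2bp3, an RNA-binding protein of fetal tissue, read 11.15 and 10.83 in stem cells, 10.78, 11.08, 11.37 and 10.48 at day 0, 10.49, 10.97 and 10.42 at day 1, 10.05 and 10.18 at day 4 and 7.06 and 6.97 in islets. Day 0 overlapped stem cells and the islet arrays were at background, at least 13.5-fold lower than stem cells (adjusted p = 5.4e-07). Igf2bp1, its relative, fell in steps, with a difference of -1.63 from stem cells to day 0 and of -2.52 from day 0 to islets, whereas Lin28a, which blocks let-7 maturation, was at background on every progenitor and islet array. Igf2, the imprinted growth factor, was lower in islets at 9.31 and 9.01 against 12.54 and 11.09 in stem cells and 11.63 to 13.63 in progenitors (adjusted p = 0.0090), but the call was lost without stem cell replicate 1 (-1.93, adjusted p = 0.082) and without islet replicate 2 (-2.51, adjusted p = 0.052). Wfdc2, a protease inhibitor of epithelia, and Gpc3, a fetal glypican, were also absent on all 3 days, with differences between islets and stem cells of -4.38 ± 0.47 and -2.37 ± 0.57. Of 23 imprinted genes tested, 5 (21.7%) were higher in islets and 4 (17.4%) lower, beside 23.2% and 23.8% of all genes. At day 0 10 of the 23 were above stem cells and 4 below, beside 49.3% of all genes called either way. Rasgrf1, a paternally expressed exchange factor, was at least 20.7-fold higher in islets, and Ndn, necdin, read 9.80 and 9.64 in stem cells, 12.25 to 12.69 in progenitors and 11.40 and 11.44 in islets.

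Immediate early and heat shock genes gave 10 higher (35.7%) and 3 lower (10.7%) of 28, beside 23.2% and 23.8% of all genes. At day 0 7 of the 10 were above stem cells, and at day 4 9 were absent. Hspa1a, an inducible Hsp70, read 7.30 and 6.96 in stem cells, 11.42, 12.77, 12.40 and 11.92 at day 0, 7.54 and 7.50 at day 4 and 11.002 and 9.57 in islets. Jun read 10.23, 11.03, 9.90 and 10.15 at day 0, 7.90 and 8.06 at day 4 and 9.67 and 9.57 in islets. Zfp36, an mRNA decay factor induced with them, was 4.21-fold higher in islets than in stem cells. These genes respond to handling of tissue, which the labels do not describe, and the part of handling was not tested.

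Across all called genes, most differences were already present in progenitors. These classes share the stem cell and islet arrays with the comparison that defines them and are a description. Of the 2412 genes higher in islets, 65.6% were present and 24.8% absent at day 0, 64.3% and 24.3% at day 1, and 66.1% and 17.5% at day 4. Of the 2472 lower genes, 72.8% were present and 16.7% absent at day 0, 71.4% and 15% at day 1, and 75.6% and 5.62% at day 4. Each day was also compared as a whole: day 1 was called against stem cells at 45.0% of all genes, and islets were called at 26.3% against day 1, between the shares given above for days 0 and 4. The days have 4, 3 and 2 arrays, so that time and number of arrays cannot be told apart in these shares, and undecided genes numbered 381 at day 0 and 829 at day 4. That order turned with a variance for each group, at 351 and 266, and with classes set by the share of the difference, at 677 and 502.

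The sizes were compared without calls as well. Among genes at least 2-fold higher in islets, the median share of the difference from stem cells that a day had reached was 64.5% at day 0, 67.5% at day 1 and 77.6% at day 4. Among genes at least 2-fold lower it was 76.6%, 79.7% and 82.5%. At all 3 days 2851 genes were present, 1307 higher and 1544 lower. At all 3 days 335 were absent, of which 268 were higher and 67 lower in islets. Another 328 were absent at day 0 and present at day 4, and 118 were present at day 0 and absent at day 4.

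**Figure D5:**
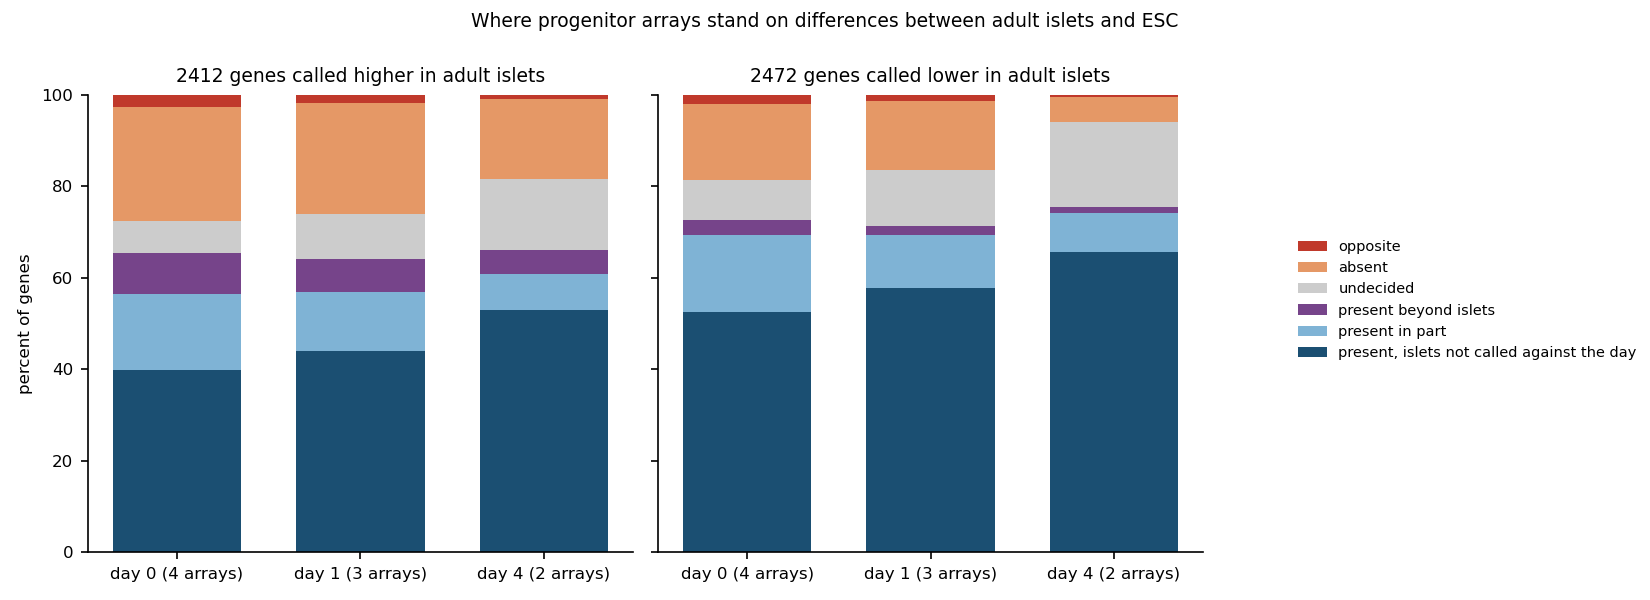
Share of the genes called higher (left, 2412) or lower (right, 2472) in adult islets that fall in each class on each progenitor day (vertical axis, percent of genes). At day 0 24.8% of the higher and 16.7% of the lower genes were absent, and at day 4, with 2 arrays, 17.5% and 5.62%.

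Opposite genes were few, with 112 at day 0, 71 at day 1 and 31 at day 4. At day 0 65 of them were higher and 47 lower in islets than in stem cells, and the 2 stem cell arrays differed by more than 1 at 4 of these 112. Opposite on all 3 days were 18 genes, 17 of them higher in islets. Fhl1, a LIM domain protein, read 10.18 and 9.79 in stem cells, 7.69, 7.66, 7.52 and 7.70 at day 0, 8.12 and 8.24 at day 4 and 10.72 and 10.83 in islets. All progenitor arrays were below both ends, and day 0 differed from stem cells by -2.34 ± 0.14 while islets were higher than stem cells by 0.79 ± 0.16 (adjusted p = 0.0018). Apobec1, a cytidine deaminase of RNA, read 8.50 and 7.81 in stem cells, 7.05 to 7.20 in progenitors and 10.499 and 10.62 in islets. Rab6b, a Golgi GTPase of neurons, had the same order, with islets 1.31 ± 0.13 above and day 0 -1.13 against stem cells. Ramp3, a receptor activity modifying protein, did too, at 8.19 and 8.21, 6.95 to 7.20 and 9.09 and 9.0, though 1 of its 3 passing probes had the opposite sign between the ends. Cxcl1, a chemokine, read 10.18 and 8.78 in stem cells, 6.99 to 7.50 in progenitors and 10.59 and 12.51 in islets, and its call between the ends was lost without stem cell replicate 2 (adjusted p = 0.076) and without islet replicate 2 (adjusted p = 0.068). Klk1, a glandular kallikrein whose family has near-identical copies, was 22-fold higher in islets and below stem cells at day 0, with a difference of -0.92.

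Mdk, the midkine growth factor, was the largest fall among the opposite genes. It read 12.32 and 12.69 in stem cells, 13.61, 13.30, 13.03 and 13.09 at day 0, 11.42, 11.34 and 11.41 at day 1, 9.69 and 9.20 at day 4 and 8.12 and 7.91 in islets. All day 0 arrays lay above both stem cell arrays, by a mean of 0.75 ± 0.19 (adjusted p = 0.0058), and all day 1, day 4 and islet arrays below them. Islets differed from stem cells by -4.49 ± 0.21 (limma, adjusted p = 5.5e-08). Lrpprc, which stabilises mitochondrial mRNA, read 8.96 and 9.01, 10.87, 10.95, 11.40 and 11.26 and 8.07 and 8.28 in stem cells, day 0 and islets, and its call between the ends was lost without islet replicate 1 (-0.70, adjusted p = 0.054). Tle6, a Groucho-related gene, was above stem cells at day 0 by 1.76 ± 0.13 and below them in islets, with a difference of -1.04 ± 0.15. Cldn6, a claudin of stem cells and fetal epithelia, had the same order, but its call between the ends was lost without stem cell replicate 1 (adjusted p = 0.083) and without islet replicate 2 (adjusted p = 0.078). At day 4 the lower genes above stem cells included Tcf19, a factor with a PHD finger, at 9.69 and 9.38 against 8.24 and 8.56 in stem cells and 7.28 and 7.42 in islets, whose call between the ends was lost without stem cell replicate 2 (-0.89, adjusted p = 0.053).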

How the data were processed

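Total RNA of 13 mouse samples was extracted with Trizol, checked on a Bioanalyser and turned into biotinylated cRNA with the Illumina TotalPrep kit, per the labels' protocols. The deposited value table holds log2 intensities of 25697 probes, from 6.73 to 15.2, made by the authors before deposit. That they are log2 was taken from their range, and the normalization between arrays and any background correction are not given in the sources used here. Another deposited table with 26 columns of per-sample values names no sample in a way that matches a label and was not used.

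Probes were named through the platform annotation given with the series: 23978 name 1 gene and 1719 none. The background level was set at the mode of all values, 6.98, plus 5 times the SD of the values below it, and 14946 probes above it on at least 2 arrays were kept, 14056 of them with a gene. The brightest probe stood for each of 10382 genes. Group means were fitted with limma 3.58.1 (lmFit and eBayes) in R 4.3.3 over the 13 arrays with 8 residual degrees of freedom, and all p-values printed with a difference are from this fit, two-sided, with Benjamini-Hochberg adjustment at 0.05. The script was tested on simulated data. The number of arrays, 2 at each end, limits the precision. A fold against a group with no array above background was computed against the background level and is a lower bound.

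The members and the 31 gene lists (1111 genes, 847 tested) were chosen with earlier results of these data known. Genes are named where they had the largest called differences of all, within a list or within a class of progenitor behaviour, or belong to a fixed set of markers, and B2m, Chgb, Mdk, Pcsk1, Slc18a2, Syn1, Dcn and the genes that set the stem cell arrays apart were chosen after their values were seen. Replicate numbers were not taken to pair the samples: the deviations of same-numbered arrays of different groups had correlations from -0.312 to 0.295, and of -0.0131 for stem cells and islets. Alternatives were other filters, normalizations, variance settings and probe rules, a replicate block, and leaving out each array.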

Additional observations from a re-analysis of the deposited data

Results flagged for a closer look

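Rsad2, the interferon-induced viperin gene, read 8.441 on day 0 replicate 1, far from the 9.08 to 9.16 of the other 3 day 0 arrays by Dixon's test at the 95% level, which flags about 1 in 20 groups by chance. Without that array the gene was still called between adult islets and stem cells.

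Mdk, the midkine gene, was above stem cells at day 0 and below them at day 4, and day 4 minus day 0 was -3.816 on the log2 scale. That difference was itself called in the limma fit.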

How the results depend on the processing

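No alternative scaling moved the median of all genes by more than 0.1 or the split of higher and lower calls by over 10 points. Tested against a 2-fold difference, 1231 genes were called, 649 higher and 582 lower, since that test asks for more. With a replicate block, 607 genes were undecided at day 0, and no other count moved by more than 1.5 times. With a variance for each group, an alternative chosen after seeing the data, opposite genes were 64 at day 0 and 36 at day 1, and at day 4 944 were absent and 266 undecided. With classes set by the share of the difference instead of calls, opposite genes were 227, 176 and 113 at days 0, 1 and 4, and 677 were undecided at day 0 and 502 at day 4. The cause of these shifts was not tested.

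Leaving out 1 array at a time gave 3721 to 4983 called genes. At day 0 it gave 553 (without islet replicate 2) to 1079 absent, 59 (without stem cell replicate 1) to 118 opposite and 289 to 490 undecided genes. At day 1 it gave 498 (without islet replicate 2) to 1022 absent, 40 (without islet replicate 2) to 79 opposite and 423 to 847 (without day 1 replicate 2) undecided. At day 4 it gave 303 (without islet replicate 2) to 620 absent, 14 (without day 4 replicate 1) to 36 opposite and 509 (without islet replicate 1) to 1631 (without day 4 replicate 2) undecided. One called gene, Rtf2, changed sign without stem cell replicate 2, from -1.47 to 0.51, where another probe stood for it. Of 123 genes tested under every alternative for the text, 95 kept their call or lack of one throughout, 20 lost a call under some alternative, 8 gained one and 0 reversed. Probes at background or near the top of the range limit what folds can be given.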
